A study of Homo sapiens with 2 samples.

Results

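The 10 genes described here encode small untranslated RNAs made by RNA polymerase III, namely RN7SK, RN7SL1, RN7SL2, RMRP, RPPH1, RNY1, RNY3, VTRNA1-1, VTRNA1-2 and VTRNA1-3. They were chosen by name, all 10 were found among the 62663 genes annotated by GENCODE 44 on chromosomes 1 to 22, X and Y, and every one is reported below. Chromatin accessibility at their start sites was read from ATAC-seq, an assay in which the Tn5 transposase cuts accessible DNA and leaves adapters there. The cells were B2B, that is BEAS-2B, an immortalized non-cancerous line from human bronchial epithelium, labelled WT, with no treatment named, and measured in 2 replicates of 1 condition. No groups could therefore be compared, and each value is given in both replicates. A gene was counted as having a peak where any base of a called peak lay within 500 bp of its transcription start site (TSS), and the peak with the highest fold enrichment was taken as its main peak. Fold enrichment is the ratio of fragments at the summit of a peak to the local background of the same library, each with 1 added.

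RNA polymerase III transcribes short RNAs that serve in the core machinery of the cell. In one class of its genes all promoter elements lie upstream of the start: a distal element that often carries an octamer, a proximal sequence element (PSE) bound by the SNAPc complex, and a TATA box. RN7SK, RMRP, RPPH1 and the Y RNA genes are of this class. In another class an A box and a B box inside the gene recruit TFIIIC, and the 7SL and vault RNA genes add upstream elements to these boxes. The 7SL and 7SK RNAs are among the most abundant non-ribosomal RNAs of human cells.

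The promoter sequences below, read from hg38 in the direction of transcription, are shown because the position of the peaks is set beside them. In the genes with upstream elements, capitals mark matches to the octamer (ATGCAAAT), the PSE core (ACCNTAA) or a TATA starting between -35 and -20, each searched on both strands. Distances count from the TSS base as 0. RNY3 (chr7:148983505-148983764, plus strand), RMRP (chr9:35658008-35658267, minus strand) and RPPH1 (chr14:20343398-20343657, minus strand) are given from -250 to 9, and RN7SK (chr6:52995511-52995630, plus strand) and RNY1 (chr7:148987239-148987358, minus strand) from -110 to 9.
RNY3: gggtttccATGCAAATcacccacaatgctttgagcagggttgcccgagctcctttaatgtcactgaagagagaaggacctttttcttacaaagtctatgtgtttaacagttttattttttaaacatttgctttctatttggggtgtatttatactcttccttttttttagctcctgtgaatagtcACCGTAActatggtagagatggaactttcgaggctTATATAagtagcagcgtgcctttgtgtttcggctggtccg
RMRP: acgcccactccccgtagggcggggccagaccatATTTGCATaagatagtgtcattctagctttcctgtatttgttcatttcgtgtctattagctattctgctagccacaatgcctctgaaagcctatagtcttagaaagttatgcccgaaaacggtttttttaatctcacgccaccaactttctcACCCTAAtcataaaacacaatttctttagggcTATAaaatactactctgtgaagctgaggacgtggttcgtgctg
RPPH1: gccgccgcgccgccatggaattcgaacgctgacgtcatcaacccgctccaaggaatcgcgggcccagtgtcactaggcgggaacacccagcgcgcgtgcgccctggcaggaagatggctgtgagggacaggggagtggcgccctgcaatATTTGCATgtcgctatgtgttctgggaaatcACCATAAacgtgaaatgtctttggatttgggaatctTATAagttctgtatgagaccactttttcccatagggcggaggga
RN7SK: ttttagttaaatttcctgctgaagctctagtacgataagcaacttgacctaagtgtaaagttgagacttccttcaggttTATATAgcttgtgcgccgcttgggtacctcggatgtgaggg
RNY1: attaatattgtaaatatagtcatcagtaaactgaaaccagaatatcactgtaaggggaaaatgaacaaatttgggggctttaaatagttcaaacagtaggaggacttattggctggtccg

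For the vault RNA genes, which lie in one cluster on the plus strand of chromosome 5, the stretch from -100 to 88 is shown because it holds both upstream and internal matches. VTRNA1-1 is at chr5:140711175-140711363, VTRNA1-2 at chr5:140718825-140719013 and VTRNA1-3 at chr5:140726058-140726246. Capitals mark the AP-1 letters TGANTCA, the A box core TNGCNNAG and the B box core GTTCGANNC. The most upstream run of capitals is an A box match that overlaps an AP-1 match.
VTRNA1-1: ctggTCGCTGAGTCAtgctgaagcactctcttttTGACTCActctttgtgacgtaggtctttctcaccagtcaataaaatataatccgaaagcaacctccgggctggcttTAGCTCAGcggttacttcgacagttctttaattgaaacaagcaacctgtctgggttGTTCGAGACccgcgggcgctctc
VTRNA1-2: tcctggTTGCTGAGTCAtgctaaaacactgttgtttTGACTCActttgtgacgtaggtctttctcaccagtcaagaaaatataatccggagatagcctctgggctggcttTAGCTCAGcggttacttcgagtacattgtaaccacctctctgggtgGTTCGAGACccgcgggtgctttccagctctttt
VTRNA1-3: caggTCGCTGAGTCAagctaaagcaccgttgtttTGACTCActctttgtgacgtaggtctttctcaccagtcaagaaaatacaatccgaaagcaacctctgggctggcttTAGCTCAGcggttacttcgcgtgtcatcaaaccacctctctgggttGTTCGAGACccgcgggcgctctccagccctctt

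The peak lists used hold 28735 peaks for replicate 1 and 36162 for replicate 2. Whole fragments over each summit were worked out from the ratio and the p-value together. No listed peak of replicate 1 had fewer than 16 of them and none of replicate 2 fewer than 13, where the genome-wide background was 4.77 and 3.41. Accessibility weaker than that was not detectable, so a start without a peak may still be open. Of 12 epithelial marker genes, among them CDH1, EPCAM and KRT5, 0 had a TSS peak in either replicate, an upper 95% Wilson limit of 24.2% that covers counting error only. Of 12 mesenchymal markers 7 had one in both. The strongest were SPARC with a fold enrichment of 11.1 ± 1.41 (SD, n = 2), FN1 with 9.46 ± 0.585 and TWIST1 with 7.57 ± 0.0950. ZEB2, COL1A1, COL1A2 and COL3A1 had no peak in either. The mesenchymal share of 58.3% (Wilson interval 32.0 to 80.7) was near the 50.9% found among all protein-coding genes. Typical mesenchymal peaks were weaker, with medians of 7.64 (replicate 1) and 6.92 (replicate 2) against 8.14 and 9.73 for protein-coding genes. The labelled cell type was thus not visible in its epithelial markers at the level of promoter peaks.

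In B2B cells, all 10 genes had a peak within 500 bp of the TSS in both replicates. By the same rule a peak was found in both replicates for 50.9% of the 20033 protein-coding genes and for 22.3% of all annotated genes, and in replicate 1 and replicate 2 alone for 51.9% and 56.6% of the protein-coding genes. The 95% Wilson interval of 10 of 10 reaches down to 72.2% and covers counting error only. The TSS base itself lay inside the peak in both replicates for 8 of 10 genes (80%), and the exceptions were RNY1 and RNY3. The same held for 43.5% of all protein-coding genes and for 85.4% of those with a peak in both replicates. The median fold enrichment over the 10 genes was 12.1 in replicate 1 and 14.9 in replicate 2, a mean of 13.5 ± 1.98 (SD, n = 2). Over the protein-coding genes with a peak in both replicates it was 8.94 ± 1.12. In both replicates 7 of the 10 genes were above the protein-coding median of that replicate.

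**Figure D1:**
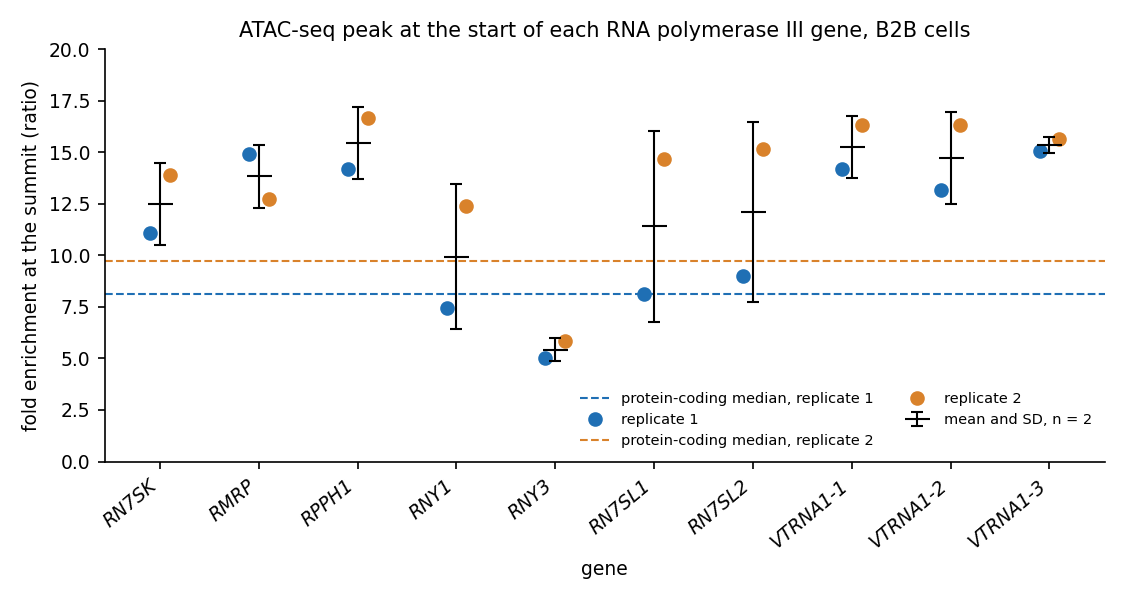
Fold enrichment at the main peak of each gene (vertical axis, ratio), with replicate 1 in blue, replicate 2 in orange, the mean and SD of the 2 replicates in black, and the protein-coding median of each replicate as a dashed line. The vault RNA genes, RPPH1 and RMRP sit between 12.8 and 16.7 in both replicates, and RNY3 sits at 5.02 and 5.84, below both dashed lines.

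RN7SK encodes the 7SK RNA, which holds the elongation kinase P-TEFb in an inactive complex. The gene (ENSG00000283293.1, plus strand) spans 52995621 to 52995948 on chromosome 6. Its main peak had a fold enrichment of 11.1 in replicate 1 and 13.9 in replicate 2, with 63 fragments at the summit (exact 95% Poisson interval 48.4 to 80.6) and 78 (61.7 to 97.3). The peak was 810 and 803 bp wide, reached from -490 and -505 over the TSS to 319 and 297, and so covered most of the gene body of 328 bp. Its summit, however, was upstream, at -308 and -249. GSTA4, a gene of the opposite strand for a glutathione transferase, has its TSS at -337, which was 29 and 88 bp from the summits.

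RMRP and RPPH1 encode the RNA subunits of RNase MRP and RNase P, which process ribosomal RNA and transfer RNA precursors. Both genes are annotated as ribozymes, RMRP (ENSG00000277027.1) on chromosome 9 from 35657754 to 35658017 and RPPH1 (ENSG00000277209.1) on chromosome 14 from 20343075 to 20343407, both on the minus strand. RPPH1 had a fold enrichment of 14.2 in replicate 1 and 16.7 in replicate 2, from 81 and 97 fragments, the highest mean of the 10 genes at 15.4 ± 1.75 (SD, n = 2). RMRP had 14.9 and 12.8, from 85 and 71 fragments, and was the gene among the 10 that was lower in replicate 2. The summits of both genes were inside the transcribed sequence. That of RPPH1 was at 119 in both replicates, the same base, and that of RMRP was at 116 and 108. RPPH1 shared its peak with the TSS of PARP2, a poly(ADP-ribose) polymerase gene on the opposite strand at -228, which was 347 bp from the summit in both replicates. RPPH1 also lies in an exon of an unnamed lncRNA gene of its own strand that starts at -278. RMRP did not share its main peak. The TSS of CCDC107 at -275 on the opposite strand had a weaker peak beside it in replicate 1 and over it in replicate 2, with a fold enrichment of 4.85 in replicate 1 and 6.65 in replicate 2 and a summit at -416 and -524 of RMRP.

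The Y RNA genes RNY1 and RNY3, whose transcripts bind the Ro60 protein, lie on chromosome 7, RNY1 (ENSG00000201098.1, minus strand) from 148987136 to 148987248 and RNY3 (ENSG00000202354.1, plus strand) from 148983755 to 148983856. They were the genes with the lowest mean fold enrichment of the 10. RNY3 had 5.02 in replicate 1 and 5.84 in replicate 2, from 28 fragments (18.6 to 40.5) and 30 (20.2 to 42.8). RNY1 had 7.45 and 12.4, from 42 fragments (30.3 to 56.8) and 66 (51.0 to 84.0). Both had their peak wholly upstream, so that the TSS and the gene body lay outside it. The peak of RNY1 ended at -174 and -197 and that of RNY3 at -101 and -166. The summit of RNY1 was at -389 and -384, which was 110 and 105 bp from the TSS of the long noncoding RNA gene GHET1 on the opposite strand. The summit of RNY3 was at -325 and -267. No canonical transcript of another gene starts within 500 bp of the RNY3 start.

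RN7SL1 and RN7SL2 encode 7SL, the RNA scaffold of the signal recognition particle that brings ribosomes to the endoplasmic reticulum. Both are on chromosome 14, RN7SL1 (ENSG00000276168.1, plus strand) from 49586580 to 49586878 and RN7SL2 (ENSG00000274012.1, minus strand) from 49862550 to 49862849. RN7SL1 had a fold enrichment of 8.14 in replicate 1 and 14.7 in replicate 2, from 46 fragments (33.7 to 61.4) and 69 (53.7 to 87.3). RN7SL2 had 9.01 and 15.2, from 51 fragments (37.97 to 67.1) and 66 (51.0 to 84.0). They had the largest ratios of fold enrichment between replicates among the 10 genes, 1.80 and 1.68, closely followed by RNY1 with 1.67. These ratios also hold the local background, which was 4.77 fragments in replicate 1 for each of them. In replicate 2 it was 3.77 for RN7SL1, 3.41 for RN7SL2 and 4.39 for RNY1. For protein-coding genes with a peak in both replicates the median ratio was 1.14 and the 95th percentile 1.73. The RN7SL2 summit was upstream in both replicates, at -90 and -99. The RN7SL1 summit was at -64 in replicate 1 and at 21 in replicate 2, so its side of the TSS was not settled. RN7SL1 lies within the full annotated extent of RPS29, a ribosomal protein gene of the opposite strand, and overlaps none of its exons. The TSS of the canonical RPS29 transcript is at -200 and inside the RN7SL1 peak. That transcript runs away from RN7SL1 and does not contain it. RN7SL2 overlaps exons of an unnamed lncRNA gene, and the TSS of another lncRNA gene is at -223.

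The vault RNA genes VTRNA1-1, VTRNA1-2 and VTRNA1-3, whose products are the RNA components of the vault particle, all had a fold enrichment of at least 13.2 in both replicates. They are annotated on chromosome 5 from 140711275 to 140711373 (ENSG00000199990.1), from 140718925 to 140719013 (ENSG00000202111.1) and from 140726158 to 140726246 (ENSG00000202515.1). VTRNA1-1 had a fold enrichment of 14.2 in replicate 1 and 16.3 in replicate 2, from 81 and 85 fragments. VTRNA1-2 had 13.2 and 16.3, from 75 and 71 fragments, and VTRNA1-3 had 15.1 and 15.6, from 86 and 68 fragments. Their means, 15.3 ± 1.51, 14.7 ± 2.22 and 15.4 ± 0.396 (SD, n = 2), differed among themselves by less than the SD of VTRNA1-1 or VTRNA1-2. Ranked among all peaks by fold enrichment, the lowest of them was at the 92.1 percentile in replicate 1 and the 95.1 percentile in replicate 2. The peaks covered the whole gene in both replicates. The VTRNA1-1 summit was inside the gene, at 59 and 55, while VTRNA1-2 was at -8 and 34 and VTRNA1-3 at -24 and 52. Within 5 Mb of the cluster the protein-coding genes with a TSS peak had a median fold enrichment of 10.6 in replicate 1 (67 genes) and 11.1 in replicate 2 (69 genes), above the genome-wide 8.14 and 9.73, and the part of this in the vault values was not tested. All the vault genes lie inside an unnamed lncRNA gene of the same strand that starts at -60 of VTRNA1-1, with VTRNA1-1 in an exon and the others in introns.

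**Figure D2:**
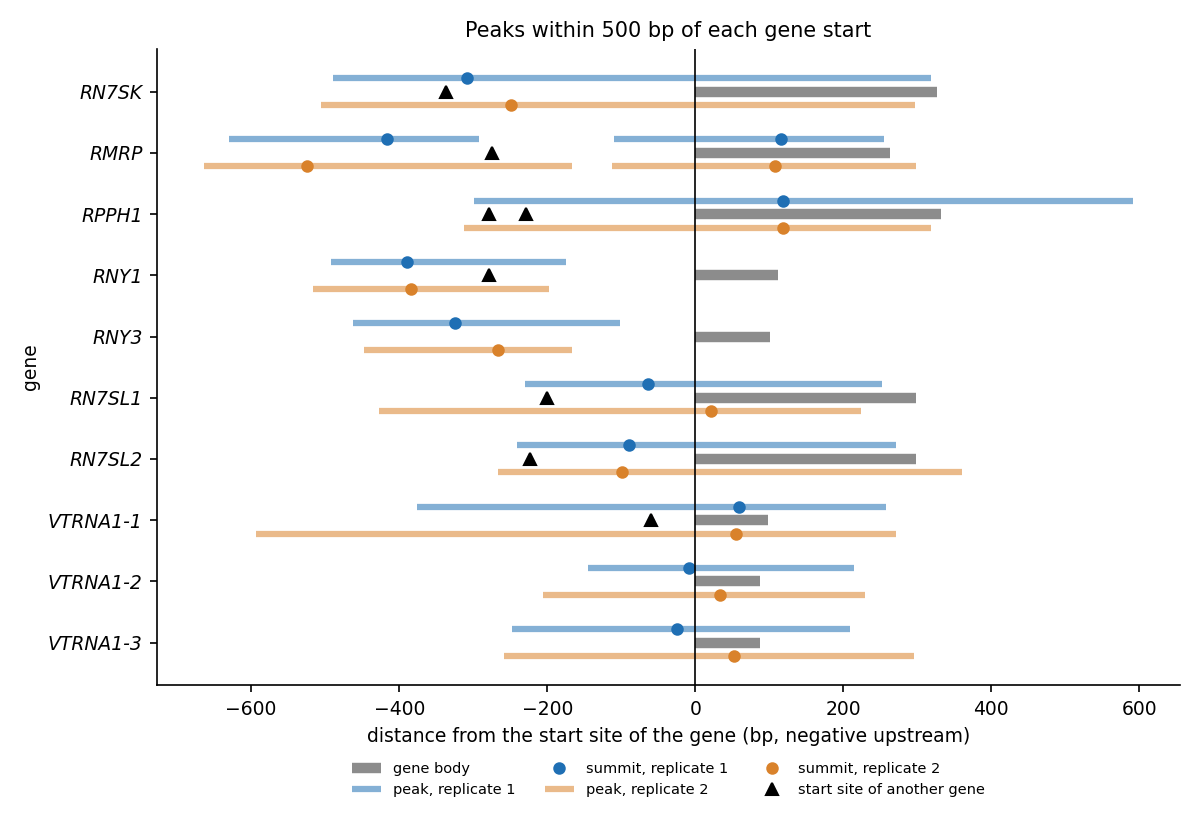
Peaks within 500 bp of each gene start, with the distance from the start in bp on the horizontal axis. Bars are peaks and dots their summits in replicate 1 (blue) and replicate 2 (orange), grey bars are gene bodies and triangles the start sites of other genes. The bars of RNY1 and RNY3 end upstream of the gene, whereas in the other 8 genes a peak crosses the start.

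Placed together, the main summits fell upstream of the TSS in both replicates for 4 genes (RN7SK, RN7SL2, RNY1, RNY3), downstream in both for 3 (RMRP, RPPH1, VTRNA1-1) and on different sides in the replicates for 3 (RN7SL1, VTRNA1-2, VTRNA1-3). Of the protein-coding genes with a peak in both replicates, 68.7% had the summit upstream in both and 15.8% downstream in both. The protein-coding summit had its median at -72 in replicate 1 and at -73 in replicate 2. The summit moved between replicates by a median of 25.5 bp over the 10 genes and by 85 bp at most, against a median of 39 bp for protein-coding genes. For 5 genes the summit was within 100 bp of the TSS in both replicates, a share of 50%, against 39.97% of protein-coding genes with a peak. For RNY1 and RNY3 it was 250 bp or more upstream in both, against 7.90% of those protein-coding genes, and RN7SK was just outside this limit with -249 in replicate 2.

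Counting only the TSS of the canonical transcript of each gene, the TSS of another gene lay within 500 bp of 7 of the 10 starts. In 2 of these, RN7SK and RNY1, the summit was closer to that other TSS than to the small RNA gene in both replicates. At such shared promoters the peak of one gene and that of the other cannot be told apart. The 3 genes with no other such TSS within 500 bp were RNY3, VTRNA1-2 and VTRNA1-3, and they spanned the range from the weakest to among the strongest peaks. Alternative starts of other genes were not searched.

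Several of these RNAs have near-identical copies, so the sequence around each start was cut into all overlapping 50-mers and each was counted in the genome on both strands. The read length and any filter on mapping quality are not given in the sources used here. Within 500 bp of the TSS, 50-mers that occur once made up 100% for RMRP, 97.7% for RNY1, 97.5% for VTRNA1-1, 96.5% for VTRNA1-3, 95.6% for RPPH1 and 94.4% for RNY3. The share was 80.4% for VTRNA1-2, 76.4% for RN7SL2, 75.9% for RN7SK and 74.6% for RN7SL1. Within the gene body it fell to 22.9% for RN7SK, 15.6% for RN7SL1, 13.1% for RN7SL2 and 0% for RNY3. Of these, RN7SK, RN7SL2 and RNY3 had the summit upstream in both replicates, as did RNY1 with 75%. The gene-body share was 100% for RMRP, RPPH1 and VTRNA1-1, whose summits were inside the gene. It was also 100% for VTRNA1-2 and VTRNA1-3, whose summits, like that of RN7SL1, changed side. Whether multi-copy sequence moved any summit or peak edge was not tested. RN7SL1 and RN7SL2 were identical at 295 of 300 aligned bases (98.3%) inside the gene but at 141 of 268 (52.6%) upstream. The 100 bp around the summit held only 50-mers that occur once in both replicates for 9 of the 10 genes. The exception was RN7SL1 in replicate 2, with 63.5%. When only bases in single-copy 50-mers were allowed to count as overlap, all 10 genes still had a peak in both replicates.

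**Figure D3:**
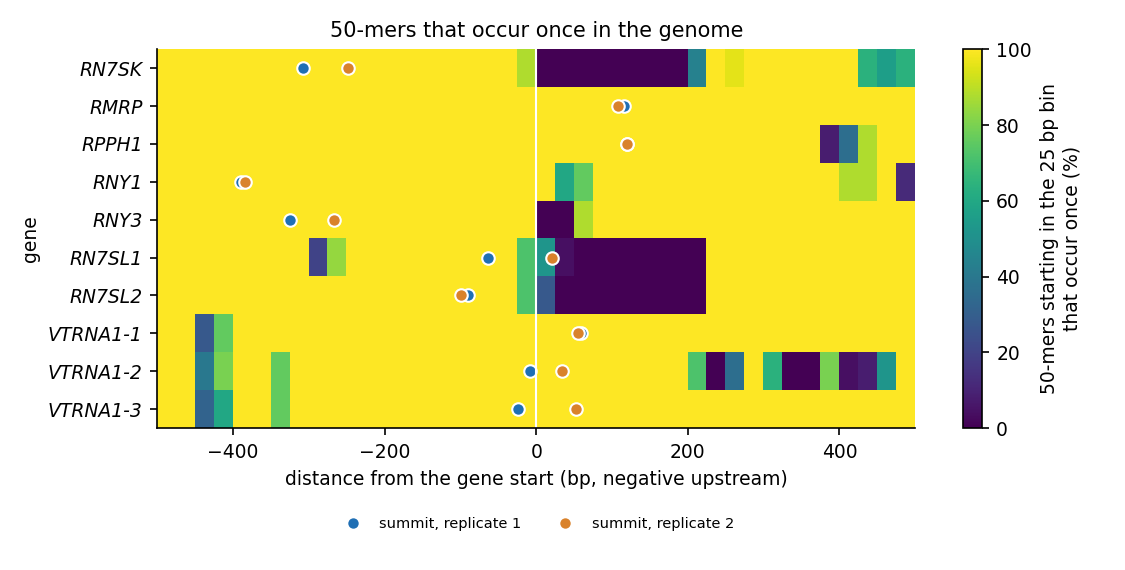
Share of 50-mers that occur once in the genome (colour, percent) by 25 bp bin and distance from the gene start in bp, with the summits of replicate 1 (blue) and replicate 2 (orange). The longest dark blocks lie inside RN7SK, RN7SL1 and RN7SL2 and downstream of VTRNA1-2, with shorter ones at RNY3 and other genes, and the only summit on a bin below 100% is that of RN7SL1 in replicate 2.

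The starts of these genes were poorer in CpG dinucleotides than those of accessible protein-coding genes. Within 500 bp of the TSS the 10 genes held 18 to 75 CpG, with a median of 42.5, against a median of 81 for protein-coding genes with a peak in both replicates. For 9 of 10 the count was below the lower quartile of that set, which was 64, and RMRP with 75 was the exception. RNY1 had 18, VTRNA1-3 28, VTRNA1-1 31, RNY3 34 and VTRNA1-2 38. Of the 6140 protein-coding genes with a count no higher than the median of the 10 genes, 8.88% had a peak in both replicates, and the median fold enrichment of those 545 was 6.76 in replicate 1 and 8.38 in replicate 2. The 3 vault RNA genes and RNY1 were thus above these medians in both replicates, and RNY3 was below them in both.

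**Figure D4:**
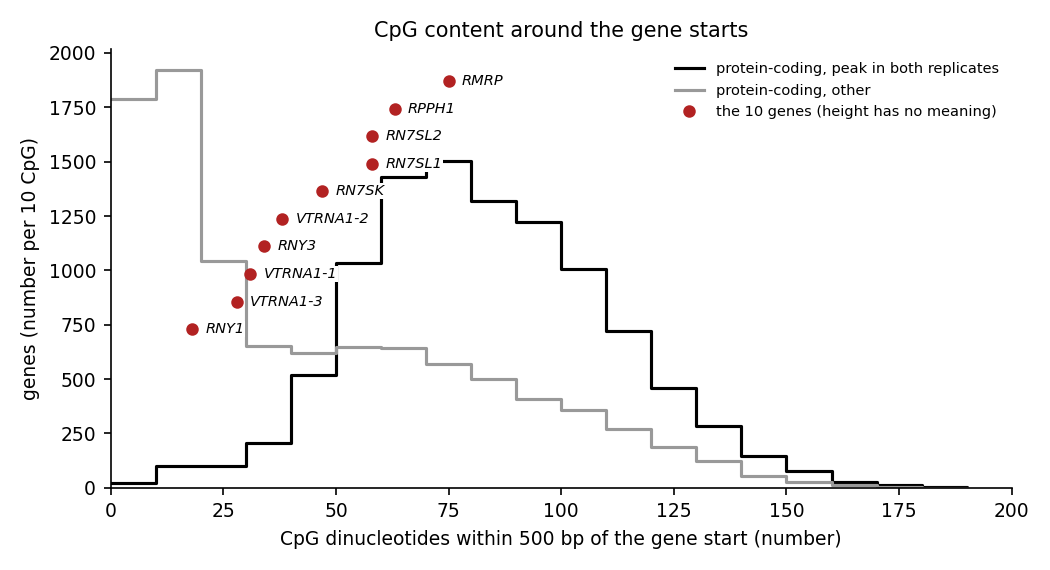
CpG dinucleotides within 500 bp of the gene start (horizontal axis, number), in genes per 10 CpG. The black line is protein-coding genes with a peak in both replicates. The grey line is all other protein-coding genes, including those with a peak in a single replicate. The red points mark the 10 genes, whose height has no meaning, and 9 of them lie below 64.

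Known promoter letters were then set beside the peaks, in the window from -250 to 100. A match is a description of the sequence and not a bound site. RMRP, RPPH1 and RNY3 each held the octamer, the PSE core and a TATA at the searched place. The PSE core was at -65 in RMRP, -70 in RPPH1 and -65 in RNY3, and the octamer at -217, -101 and -242. Of 62539 annotated promoters of the same length, 3.003% held the octamer, 7.92% the PSE core and 5.84% such a TATA. VTRNA1-1 and VTRNA1-2 also held a TATA there, at -21. RN7SK held a TATA, starting at -31, but not the letters of the octamer or the PSE core, and RNY1 held none of these. Despite the shared letters the peaks differed, since RMRP and RPPH1 had summits inside the gene and RNY3 had its summit upstream of the octamer at -242 in both replicates. Within the gene body, however, 50-mers that occur once made up 100% for RMRP and RPPH1 and 0% for RNY3. The part of this in the difference was not tested. The PSE core lay inside the peak of RMRP and RPPH1 and outside that of RNY3.

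All 3 vault RNA genes held a pair of AP-1 matches upstream, at -92 and -66 in VTRNA1-1 and VTRNA1-3 and at -90 and -64 in VTRNA1-2. Among all promoters 8.97% held the AP-1 letters and 0.644% held 2 or more matches. The upstream sequences of the vault genes were 83.5% to 84.3% identical, so these matches are not separate observations. Each also held the B box core, at 66 in VTRNA1-1 and at 56 in the others, and an A box core at 10. The B box core was found in 1.56% of all promoters, whereas the short A box core was found in 48.3%. The CRE letters TGACGTCA were found in RN7SL1 at -51 and in RPPH1 at -221, and in 1.23% of all promoters. The letters ACTACAA, searched for ZNF143, were in 0 of the 10 windows, and in 3.67% of all promoters. Other forms of the ZNF143 site were not searched, so sites of that factor may still be present.

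Other small RNA genes gave a background for these values. Of 28 further RNA polymerase III genes listed, 27 were found in the annotation, and 6 of these had a peak in both replicates (22.2%, Wilson interval 10.6 to 40.8). VTRNA2-1, a related vault-like RNA gene, had the highest mean at 15.4 ± 1.24 (SD, n = 2) with summits at -36 and -75. RNU6ATAC, of the minor spliceosome, had 13.3 ± 0.401 with summits at -330 and -334, and RNU6-8, a U6 gene, had 8.20 ± 0.412 with summits at -317 and -263. The U6 genes are of the class with upstream elements. A peak was present in both replicates for 3 of the 5, and all 5 had one in at least 1 replicate. RNU6-2, named after its values were seen, is counted among the 3 and the 6. Its main peaks did not overlap, with summits at -284 in replicate 1 and 142 in replicate 2. Of the 17 5S ribosomal RNA genes of the cluster 1 had a peak in both, but at most 9.77% of the 50-mers around any of them occur once, so a missing peak there says little. Named after their values were seen, RNY4, BCYRN1 and RN7SL3 had no peak in either replicate. RN7SL3 is 97.7% identical to RN7SL1 within the gene, yet 89.7% of the 50-mers within 500 bp of its start occur once, against 74.6% for RN7SL1.

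Small nuclear RNA (snRNA) genes of RNA polymerase II and the telomerase RNA gene TERC were set beside them. These snRNA genes also use a PSE but are read by another polymerase. All 18 had a peak in both replicates. Their median fold enrichment was 8.14 and 9.84 in the first and second replicate, where the 10 genes had 12.1 and 14.9. RNU1-3 with 16.6 ± 0.00871, RNU1-4 with 16.5 ± 1.29 and RNVU1-18 with 12.8 ± 0.299 (SD, n = 2) were the highest. Of the 50-mers within 500 bp of the start, 0% occurred once for RNU1-3 and RNU1-4 and 16.9% for RNVU1-18, so reads at these copies may be shared between them. The TSS base was inside a peak in both replicates for 6 of the 18, against 8 of the 10 genes. Most of their summits lay farther downstream, the median being 192.5 and 226.5 in the replicates, where the 10 genes had -44 and 27.5. The 3 strongest went against this, with summits at -271 and -261 in RNU1-3, -271 and -264 in RNU1-4 and -280 and -277 in RNVU1-18. No test was run on this difference, as the lists are short and the genes were chosen with results known.

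**Figure D5:**
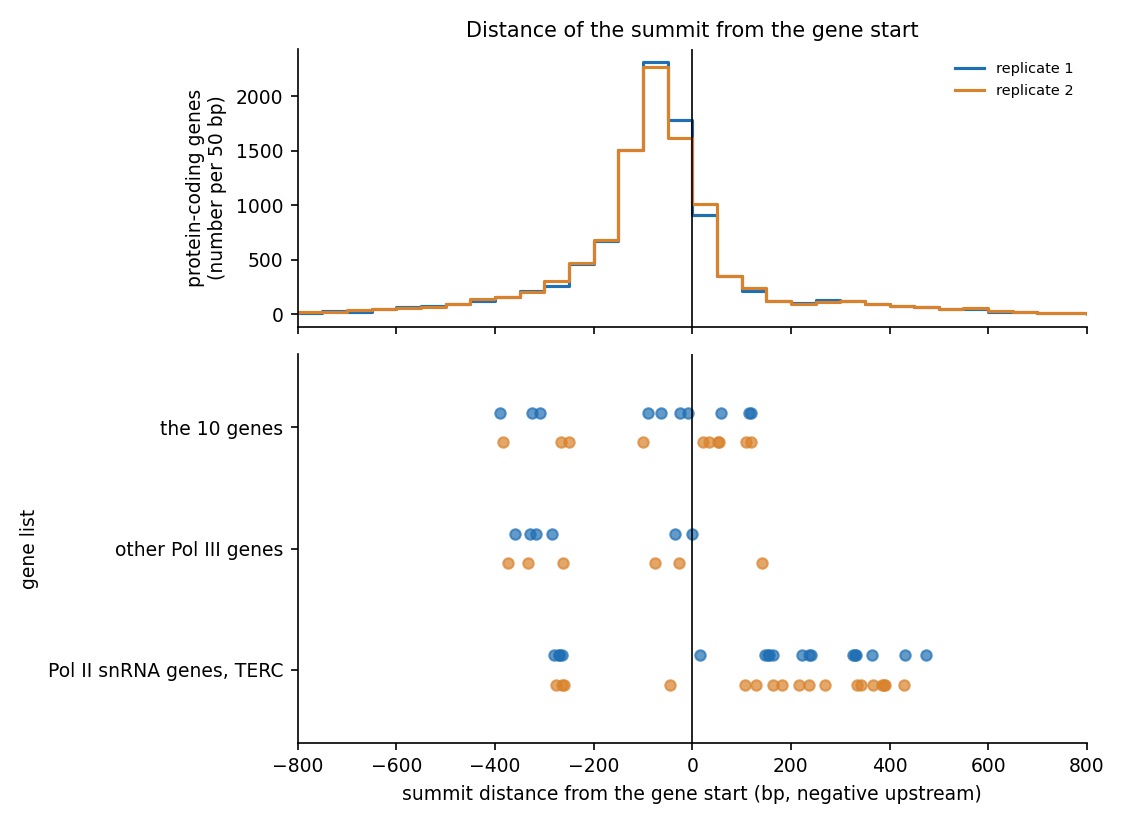
Distance of the main summit from the gene start in bp. The upper panel counts protein-coding genes per 50 bp with a peak in both replicates, and the lower panel shows each gene of the 3 small RNA lists with a peak in both, replicate 1 in blue and replicate 2 in orange. The 10 genes span -389 to 119, and most RNA polymerase II snRNA genes lie to the right of them.

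The genome also holds 1788 annotated copies and pseudogenes of the 10 RNAs, and 18 of these (1.01%, Wilson interval 0.638 to 1.59) had a peak in both replicates. The TSS base of the copy was inside a peak in both replicates for 2 of them, and 6 of the 18 lay within 1 kb of a protein-coding TSS. By family, 8 of 677 RN7SL copies, 6 of 809 Y RNA copies and 4 of 299 RN7SK copies had a peak, and 0 of the 3 copies of RMRP and the vault RNAs did. The strongest was at RN7SL525P, with a fold enrichment of 15.4 ± 1.70 (SD, n = 2), summits at -510 and -601 and a protein-coding TSS 486 bp away. RN7SL148P had 13.7 ± 3.41 with summits at 628 and 545, and a Y RNA copy on chromosome 1 (ENSG00000202079.1) had 13.6 ± 0.608 with summits at -310 and -337. Thus the peaks of the 3 strongest copies did not reach the start of the copy, unlike those at 8 of the 10 genes.

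The genes for the proteins that make and bind these RNAs were mostly accessible too. Of 32 genes for subunits and factors of RNA polymerase III transcription, 27 had a TSS peak in both replicates (84.4%, Wilson interval 68.2 to 93.1), against the protein-coding share of 50.9%. SNAPC3, a SNAPc subunit, had the highest fold enrichment at 18.9 ± 1.80, followed by the polymerase subunit genes POLR3F with 15.9 ± 0.536 and POLR3E with 15.6 ± 0.915 (SD, n = 2). The other 5 had a peak in a single replicate. Of 27 genes for protein partners of the RNAs, 26 had a peak in both (96.3%, 81.7 to 99.3). The highest were SRP9 with 19.0 ± 3.25 and SRP19 with 16.4 ± 2.75, both of the signal recognition particle, and RPP40 of RNase P with 16.6 ± 1.62. MVP, the gene of the major vault protein, was the 1 partner without a peak in either replicate, although all 3 vault RNA genes had strong peaks.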

How the data were processed

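ATAC-seq was analysed in 2 replicates of B2B cells. Per the submitters' processing notes and the methods, the authors mapped reads to hg38 with Bowtie2 2.4.4, used SAMtools 1.13, removed duplicates and called peaks with MACS2 2.2.7.1 on each replicate. The deposited lists give a fold enrichment (a linear ratio), a −log10 p and a −log10 q per peak, a summit position in bp, and a score that was not used. The Tn5 shift, the q limit and the mapping quality filter are not given in the sources used here.

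Only chromosomes 1 to 22, X and Y were used, where no peak ran past a chromosome end. TSSs were those of canonical transcripts in GENCODE 44. Whole fragments at each summit were found by inverting the MACS2 formulas for both measures, which met the −log10 p within 0.01 for 99.9% of peaks, with a median of 35 in replicate 1 and 30 in replicate 2. On simulated data 492 of 492 pileups and 400 of 400 planted peaks were recovered. With 1 condition no test was run. Intervals are at 95% and cover counting error only. Python 3.11.15, numpy 2.4.6, pandas 2.3.3, scipy 1.17.1, Biopython 1.88 and matplotlib 3.10.9 were used.

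The genes and lists were chosen with earlier results of these data known. Named were all 10 genes, the 3 highest by mean fold enrichment of each other list, and genes without a peak where they were 5 or fewer. The labels call the replicates biological. The sequences of the 7SL genes are not reported here. Results were recomputed with peaks limited to a −log10 q of 5 or more, with lists cut to equal length by p, with windows of 250 bp and 1 kb, with the summit in place of any base, with RefSeq gene starts, with each replicate alone, with single-copy bases, and with motifs within 100 bp of the summit.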

Additional observations from a re-analysis of the deposited data

How the results depend on the processing

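Of 216 values recomputed for 34 results under the alternatives, 199 moved by less than the spread between replicates or, for counts, by less than 1.5 times. This number is no measure of stability. For fold enrichment and summit distance, a replicate alone always lies within that spread of the mean. Under the other alternatives the fold enrichment of each of the 10 genes was unchanged, as the same main peak was read again. The number of the 10 genes with a peak was 10 under every alternative run, and their median fold enrichment was 12.1 to 14.9 with each replicate alone. The mean summit changed its side of the TSS for RN7SL1 (-64 to 21 with each replicate alone), VTRNA1-2 (-8 to 34) and VTRNA1-3 (-24 to 52), and for RPPH1 it was 123 from the RefSeq start.

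The share of RNA polymerase II snRNA genes with a peak was 94.4% with equal numbers of the strongest peaks and with the 250 bp window. The share of annotated copies was 0.559% with the summit in the window, 0.280% within 250 bp, 2.18% within 1 kb and 1.06% to 1.34% with each replicate alone. With each replicate alone the share was 29.6% to 40.7% for the other RNA polymerase III genes and 51.9% to 56.6% for protein-coding genes. Within 100 bp of the summit in both replicates, AP-1, CRE and octamer letters were each found in 1 of the 10 genes, the PSE core in 0, and TATA at any position in 2, VTRNA1-1 and VTRNA1-2, but not in RMRP, RPPH1, RNY3 or RN7SK. The cause of these changes was not tested, beyond the smaller or larger window itself. RefSeq starts were not run for the copies. No paired analysis was possible because there is 1 condition. Depth limits the weak peaks, since RNY3 rests on 28 and 30 fragments.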

Other observations

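The tRNA genes, the largest class of RNA polymerase III genes, were added after the data were seen. Of 443 tRNA genes in the RefSeq table, 132 (29.8%, 95% Wilson interval 25.7 to 34.2) had a peak within 500 bp in both replicates. At these tRNA genes the fold enrichment had a median of 6.24 and 7.28 in the first and second replicate. RNY3 was below these medians in both replicates, and the other 9 genes were above them.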
